A study of Mus musculus with 4 samples.

Results

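Transcripts of 10 genes that move iron into, within and out of cells were followed in single mouse bone marrow cells. The genes were chosen by name for their place in iron handling and not by a measured value, though earlier results of these data were known. They were Tfrc, Steap3 and Slc11a2 for uptake, and Slc25a37 and Slc25a28 for import into mitochondria. Fth1 and Ftl1 were taken for storage, Slc40a1 for export, and Ireb2 and Aco1 as sensors. All 10 were found among the 17507 gene names of the count tables. Cells came from the marrow of C57BL/6 mice, lacked CD51 at the surface and were sorted as CD44+ or CD44-; both sorts are called TNCs, a term the labels do not spell out, and neither genotype, age nor treatment separates them. The series asks about the blood-cell origin of marrow cells without CD45. Of 4 plates of 384 wells, 1 held CD44+ cells, 1 held CD44- cells and 2 held CD44+ cells in rows A to H and CD44- cells in rows I to P. Wells with at least 1000 transcripts were taken as cells, which left 238 CD44+ and 105 CD44- wells, 343 of 1536. They were summed to 3 libraries per sort, with a plate of its own behind each replicate 1, while the row blocks of the shared plates gave replicates 2 and 3.

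Iron bound to transferrin enters a cell through the transferrin receptor, is reduced in the endosome and passes into the cytosol. From there it is stored in ferritin, exported by ferroportin or carried into mitochondria, where iron-sulfur clusters and heme are made. Red cell precursors are the marrow's main users of iron, because hemoglobin needs a heme in every subunit. A pair of markers that are not among the 10 genes were used to find such cells: Alas2, the heme synthesis enzyme of red cell precursors, and Car1, a carbonic anhydrase of early red cell progenitors. Alas2-containing wells held at least 1 Alas2 transcript (58 wells), Car1-rich wells held at least 3 Car1 transcripts that made up at least 2 per 1000 of the well (49 wells), 9 wells were in both classes, and 245 wells, called the remaining wells, were in neither.

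Cells adjust iron handling after transcription through iron-responsive elements, short hairpins in untranslated regions (UTRs) that the proteins encoded by Aco1 and Ireb2 bind when iron is scarce. Binding in a 3′ UTR protects the messenger RNA, and binding in a 5′ UTR blocks its translation, a step that transcript counts do not see. The hairpins are shown because, where one is found, it bears on how a transcript level can be read. The UTRs of GENCODE vM21 (GRCm38, the assembly also called mm10) were searched on the transcript's own strand for an unpaired C, 5 bases of stem, the loop CAGTGN and 5 bases that pair with the stem, G with T allowed. Of the 10 genes, 1 held matches in the 3′ UTR and 3 in the 5′ UTR, against 0.61% of 20920 genes with an annotated 3′ UTR and 0.14% of 20544 with a 5′ UTR. Each sequence below is 30 bases on the transcript's strand from 5′ to 3′, with the loop in capitals.
Tfrc, 3′ UTR, chr16:32631219-32631248: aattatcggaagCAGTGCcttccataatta
Tfrc, 3′ UTR, chr16:32631598-32631627: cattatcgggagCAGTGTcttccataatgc
Tfrc, 3′ UTR, chr16:32631663-32631692: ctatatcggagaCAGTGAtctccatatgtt
Tfrc, 3′ UTR, chr16:32631710-32631739: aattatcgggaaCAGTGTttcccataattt
Fth1, 5′ UTR, chr19:9982732-9982761: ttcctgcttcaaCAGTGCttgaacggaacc
Ftl1, 5′ UTR, chr7:45459778-45459807: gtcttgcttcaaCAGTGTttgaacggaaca
Slc40a1, 5′ UTR, chr1:45925464-45925493: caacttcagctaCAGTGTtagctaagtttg
Tfrc and Fth1 lie on the forward strand, and Ftl1 and Slc40a1 on the reverse strand. The 6 other genes held no match to these letters, which says nothing else about them. The search allowed no unpaired base within the 5 bases of stem. An iron-responsive element of another shape would be missed, so a gene without a match may still hold 1. Alas2 itself held a match in its 5′ UTR that is split by an intron.

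Depth and cell content differed between libraries. Median transcripts per well were 1994, 5162 and 11225 in CD44+ libraries 1, 2 and 3, and 1848, 1795 and 2544 in CD44- libraries 1, 2 and 3. Wells of low quality, marked by Kcnq1ot1 and the transcripts that accompany it or by mitochondrial genes, made up 55.4%, 41.1% and 25.3% of CD44+ wells and 43.2%, 8.33% and 13.5% of CD44- wells. They were also unequal between classes, at 19.0% of Alas2-containing, 4.08% of Car1-rich and 42.9% of the remaining wells, whose median depths were 4889, 16196 and 2837 transcripts. Wells in which stromal genes made up at least 2% numbered 0, 3 and 1 in the CD44+ libraries and 4, 1 and 10 in the CD44- libraries. The genes of the surface antigens, Ptprc, Cd44 and Itgav, were only summed, and the sum does not show which way each of them went. It stood at 240, 447 and 269 CPM in CD44+ libraries and 474, 731 and 328 CPM in CD44- libraries. CPM are transcripts of a gene per 1000000 transcripts of the summed wells. Alas2-containing wells were 37 of 238 CD44+ and 21 of 105 CD44- wells, and Car1-rich wells 45 of 238 and 4 of 105. In a sum over wells, more wells with a transcript and more transcripts per well cannot be told apart.

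Between the sorts, no iron gene passed the test. Of 2463 genes tested, 1.02% were called (edgeR's quasi-likelihood test, adjusted p under 0.05; in the CD44+ sort 1 was higher and 24 were lower), and 0 of the 5 iron genes that passed the filter on low counts were among them. With the replicate pair as a block 156 genes (6.33%) were called, and again 0 of the 5; DESeq2 called 270 (11%) and 0 of the 5. Unadjusted p was under 0.05 for Slc25a37 alone of the 5. The median log2 difference of the 5 was -0.03, beside -0.04 for all genes tested. The plot of the 10 genes by sort shows every library. Here and below, a lack of overlap between groups of libraries is a description, because the share of all genes without overlap is not given.

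**Figure D1:**
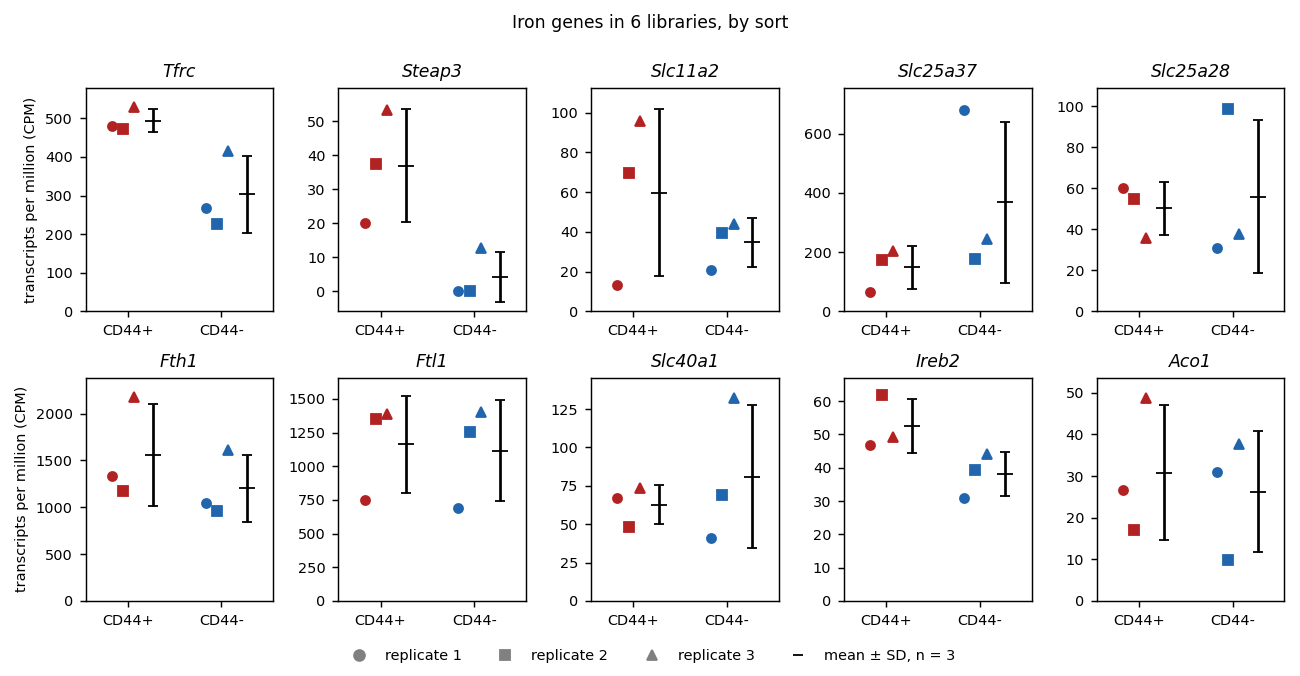
CPM (vertical axis, linear, from 0 or just below it) of the 10 iron genes in the 3 CD44+ and 3 CD44- libraries; symbols mark the replicate, and bars show mean ± SD over 3 libraries. The sorts do not overlap for Tfrc, Steap3 and Ireb2, and Slc25a37 stands apart in CD44- replicate 1, at 681 CPM. An exact permutation test of 3 against 3 libraries cannot go below p = 0.1, and the share of all genes without overlap is not given.

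Tfrc, the receptor through which cells take up transferrin iron, lies at chr16:32608920-32632794 on the forward strand. It stood at 481, 472 and 530 CPM in CD44+ libraries 1, 2 and 3, against 268, 227 and 416 CPM in CD44- libraries 1, 2 and 3. Every CD44+ library lay above every CD44- library, with a log2 difference at 0.63 (SE 0.34, adjusted p = 0.341 in edgeR). Within pairs 1, 2 and 3 the log2 ratios, taken after adding 10 CPM, were 0.82, 1.02 and 0.34. The difference turned to -0.56 when each well was thinned to 1000 transcripts (adjusted p = 0.893), and was 0.20 without stromal-rich wells (adjusted p = 0.828). In those 19 stromal-rich wells only 4 Tfrc transcripts were counted, 29.8 CPM, against 486 CPM in all wells.

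Steap3, the reductase that prepares endosomal iron for transport, lies at chr1:120190757-120272705 on the reverse strand. It stood at 20.04, 37.6 and 53.3 CPM in CD44+ libraries, against 0, 0 and 12.6 CPM in CD44- libraries. These are 3, 42 and 91 transcripts against 0, 0 and 2. A count of 0 allows up to 30.9 and 29.6 CPM in CD44- libraries 1 and 2, above the level of CD44+ library 1. Steap3 did not pass the filter on low counts. With no filter it was higher in the CD44+ sort (log2 difference 3.21, adjusted p = 0.0441 in edgeR), the only 1 of the 10 genes called there. In that setting 476 of 16924 genes were called, and the median log2 difference of all genes was 0.41.

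Slc11a2, the transporter (DMT1) that carries ferrous iron out of the endosome, lies at chr15:100387898-100425072 on the reverse strand and overlaps Gm5475 on the opposite strand. It stood at 13.4, 69.8 and 95.5 CPM in CD44+ libraries, against 20.6, 39.5 and 44.1 CPM in CD44- libraries. The sorts overlapped through CD44+ library 1, and the gene did not pass the filter.

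Slc25a37 encodes mitoferrin 1, which brings iron into the mitochondria of red cell precursors. It lies at chr14:69241848-69285112 on the reverse strand, where Gm27222, Gm27223 and Gm31748 overlap it on the opposite strand and Gm20236 on the same strand. It stood at 66.8, 174 and 204 CPM in CD44+ libraries, against 681, 178 and 246 CPM in CD44- libraries. The sorts overlapped on the shared plates, and CD44- library 1 was the highest of the 6. The log2 difference was -1.51 (SE 0.61, adjusted p = 0.234 in edgeR), with pair ratios of -3.17, -0.03 and -0.26, and it was -0.39 without CD44- library 1 (adjusted p = 0.619). Of the 66.1 Slc25a37 transcripts of that library, 64.1 lay in its 9 Alas2-containing wells. Its late erythroid marker genes summed to 36314 CPM, against 1886 to 5648 CPM in the 5 other libraries. The part of such cells in the sort difference was not tested.

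Its relative Slc25a28 encodes mitoferrin 2, the carrier of most other tissues, at chr19:43663801-43674881 on the reverse strand. It stood at 60.1, 54.5 and 35.7 CPM in CD44+ libraries, against 30.9, 98.7 and 37.8 CPM in CD44- libraries. The sorts overlapped and the gene did not pass the filter.

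Neither ferritin chain passed between the sorts. Fth1, the heavy chain that oxidises iron for storage (chr19:9980598-9985098, forward strand), stood at 1333, 1169 and 2182 CPM in CD44+ libraries, against 1041, 958 and 1615 CPM in CD44- libraries. Its log2 difference was 0.28 (SE 0.34, adjusted p = 0.689), and CD44+ was higher on each of the 3 pairs, by 0.28 to 0.43. Ftl1, the light chain that helps form the iron core (chr7:45457944-45459884, reverse strand), stood at 749, 1351 and 1389 CPM in CD44+ libraries, against 691, 1256 and 1401 CPM in CD44- libraries. Its log2 difference was -0.03 (SE 0.32, adjusted p = 0.967). Both chains have near-identical pseudogenes. Ftl1 overlaps Gm10252 on the opposite strand and the microRNA gene Gm22133 on the same strand. How the authors' counting split such reads makes the levels of both chains uncertain.

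Slc40a1, or ferroportin, the only known iron exporter of mammals (chr1:45908068-45926523, reverse strand), stood at 66.8, 48.3 and 73.2 CPM in CD44+ libraries, against 41.2, 69.1 and 132 CPM in CD44- libraries. The sorts overlapped, with a log2 difference at -0.53 (SE 0.46, adjusted p = 0.545). Stromal-rich wells, most numerous in CD44- library 3, held Slc40a1 at 179 CPM in 24 transcripts, against 66.3 CPM in all wells. Without stromal-rich wells the gene no longer passed the filter. Ireb2, the iron sensor IRP2 (chr9:54863789-54912530, forward strand), stood at 46.8, 61.7 and 49.2 CPM in CD44+ libraries, against 30.9, 39.5 and 44.1 CPM in CD44- libraries. The sorts did not overlap, but the CD44- values rest on 3, 4 and 7 transcripts. Aco1, the sensor IRP1 that is also cytosolic aconitase (chr4:40143081-40198338, forward strand), stood at 26.7, 17.0 and 48.6 CPM in CD44+ libraries, against 30.9, 9.87 and 37.8 CPM in CD44- libraries, which overlap.

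Shares of wells that held a transcript did not pass between the sorts either. After thinning each well to 1000 transcripts, Tfrc was found in 24.3% ± 6.11 of CD44+ wells and 21.3% ± 8.99 of CD44- wells (SD, n = 3 libraries each; exact permutation p = 0.7). Slc25a37 was found in 9.70% ± 5.32 of CD44+ wells and 18.8% ± 3.80 of CD44- wells (exact permutation p = 0.1, the smallest that 3 against 3 can give; 0.5 adjusted over the 10 genes). Without thinning the Slc25a37 means were 34.4% ± 24.4 of CD44+ wells and 31.3% ± 7.76 of CD44- wells. For the 8 other genes the thinned shares had exact permutation p-values of 0.1 (Ireb2) to 1 and adjusted values of 0.5 or more.

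Alas2-containing wells held more Slc25a37 and Tfrc than the remaining wells of the same library, in 6 of 6 libraries for each gene, though neither passed the adjusted threshold of the main test. Of 877 genes tested with the library as a block, 0.912% were called in edgeR (5 higher, 3 lower). Of the iron genes, 4 passed the filter and 0 were called in edgeR; 3 of the 4 had an unadjusted p under 0.05, and DESeq2 called those 3 (Tfrc, Slc25a37 and Fth1) among 144 genes, 16.4% of all tested. The remaining wells are a mixture, in which neutrophil genes summed to 1210 to 47805 CPM and stromal genes to 279 to 34773 CPM per library. In Alas2-containing wells the same lists stood at 88.9 to 38971 CPM and 87.5 to 48694.5 CPM. Late erythroid genes, a list that includes Alas2 itself, summed to 5539 to 154150 CPM in Alas2-containing wells and 247 to 4307 CPM in the remaining wells.

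Slc25a37 stood at 269, 519 and 374 CPM in Alas2-containing wells of CD44+ libraries 1, 2 and 3, against 24.2, 54.5 and 109 CPM in the remaining wells of those libraries. In CD44- libraries 1, 2 and 3 it stood at 3092, 327 and 1123 CPM in Alas2-containing wells, against 26.2, 106 and 96.8 CPM in the remaining wells. The classes did not overlap. The log2 difference was 2.97 (SE 0.62, adjusted p = 0.0516 in edgeR), and the range over the alternatives was 2.42 to 3.65. The gene passed with DESeq2 (adjusted p = 1.96e-05), without TMM factors (adjusted p = 0.0232), with no library block (adjusted p = 0.0329), with no filter (adjusted p = 3.71e-05) and without CD44+ library 3 (adjusted p = 0.0140). It did not pass without wells of low quality (adjusted p = 0.130) or without any 1 of the 5 other libraries. With 1 of those left out the adjusted p was 0.0533 to 0.190. Over the alternatives that tested the gene, the adjusted p lay between 1.96e-05 and 0.190. Counting wells with at least 2 Alas2 transcripts gave 3.65 (adjusted p = 0.000245), and leaving out stromal-rich, B lineage-rich and neutrophil-rich wells gave 3.04 (adjusted p = 0.00323). Alas2-containing wells held 71.3% of all Slc25a37 transcripts and 30.3% of the transcripts of all genes, and the 10 wells with the most Slc25a37 transcripts were all Alas2-containing.

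**Figure D2:**
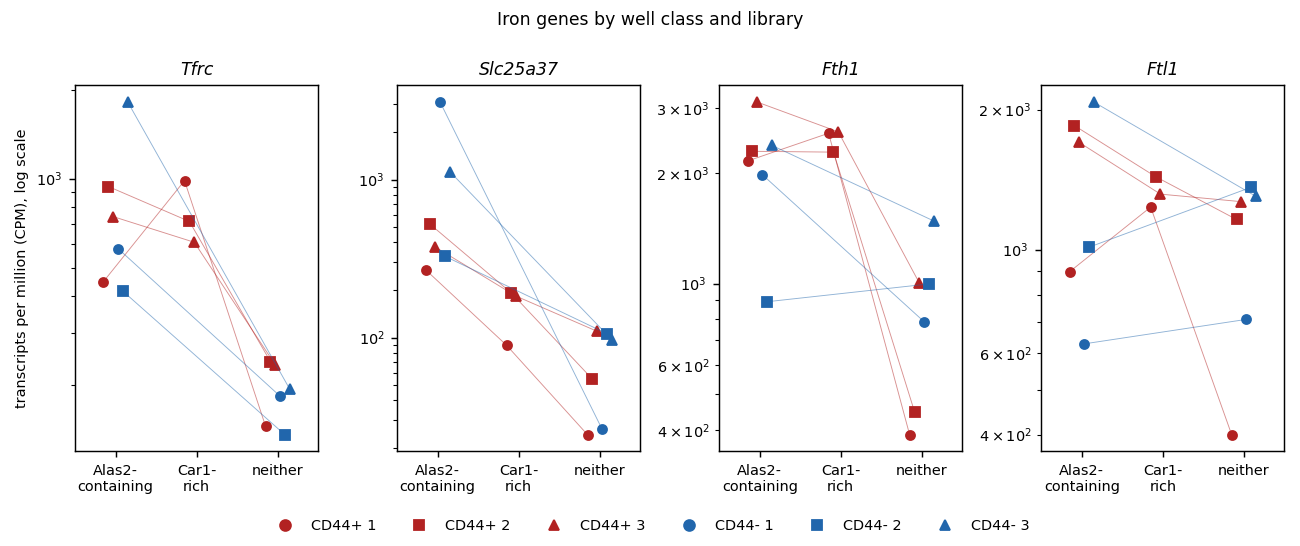
CPM on a log axis of Tfrc, Slc25a37, Fth1 and Ftl1 in Alas2-containing, Car1-rich and remaining ("neither") wells; each point is a library with at least 3 wells of that class, and thin lines join the classes of a library. For Slc25a37 and Tfrc every Alas2-containing point lies above every point of the remaining wells, and Ftl1 overlaps across the 3 classes.

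Tfrc stood at 448, 940 and 743 CPM in Alas2-containing wells of CD44+ libraries 1, 2 and 3, against 145, 240 and 234 CPM in the remaining wells. In CD44- libraries 1, 2 and 3 the values were 579, 416 and 1814 CPM in Alas2-containing wells, against 183, 136 and 194 CPM in the remaining wells. The classes did not overlap, and the log2 difference was 1.66 (SE 0.38, adjusted p = 0.0578 in edgeR). It was 1.98 without TMM factors (adjusted p = 0.0211), where the median of all genes was 0.17 instead of -0.12. It was 1.56 with no filter (adjusted p = 0.0334), and 1.29 without CD44- library 3 (adjusted p = 0.0424). DESeq2 gave 1.68 (adjusted p = 0.000327). Tfrc did not pass in edgeR without wells of low quality (adjusted p = 0.130) or with no library block (adjusted p = 0.113). With at least 2 Alas2 transcripts the adjusted p was 0.115. Without any 1 library other than CD44- library 3 it was 0.0541 to 0.190. Leaving out stromal-rich, B lineage-rich and neutrophil-rich wells gave 1.23 (adjusted p = 0.183). After thinning, Tfrc and Slc25a37 were not tested in this comparison. Over the alternatives that tested Tfrc its adjusted p lay between 0.000327 and 0.190.

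Fth1 stood at 2155, 2290 and 3116 CPM in Alas2-containing wells of CD44+ libraries, against 388, 448 and 1003 CPM in the remaining wells. In CD44- libraries it stood at 1980, 892 and 2376 CPM in Alas2-containing wells, against 787, 998 and 1479 CPM in the remaining wells. It was higher in 5 of 6 libraries, with CD44- library 2 the exception, and the classes overlapped (log2 difference 1.08 with an SE of 0.32; adjusted p = 0.0890 by edgeR and 0.00417 by DESeq2). Ftl1 averaged 1360 ± 590 CPM in Alas2-containing wells and 1033 ± 389 CPM in the remaining wells (SD, n = 6 libraries), higher in 4 of 6, with a log2 difference at 0.08 (SE 0.26, adjusted p = 0.927). The 6 other genes were below the filter. Of these, Slc11a2 averaged 76.2 ± 32.1 against 28.0 ± 18.1 CPM, higher in 5 of 6 libraries. Ireb2 averaged 13.1 ± 21.7 against 51.7 ± 13.3 CPM, lower in 5 of 6, with 0 transcripts in Alas2-containing wells of 4 libraries. In those 4 libraries these wells summed to only 11157 to 33690 transcripts of all genes, too few to show a lower level, and held 1 or 2 Slc11a2 transcripts. Summed over all libraries, Ireb2 stood at 41.6 CPM in Alas2-containing wells and 52.6 CPM in the remaining wells. Slc25a28, Slc40a1, Steap3 and Aco1 overlapped between the classes.

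The effect of the Alas2 class was not shown to differ between the sorts. In an edgeR fit with an interaction term 0 of 877 genes were called, and 31 had an unadjusted p under 0.05. For Fth1 the class difference was larger in the CD44+ sort by 1.20 on the log2 scale (SE 0.52, unadjusted p = 0.0479 and adjusted p = 0.983), and the adjusted p-values of Tfrc, Slc25a37 and Ftl1 were 0.983 to 0.995.

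Car1-rich wells held more Fth1, Tfrc and Slc11a2 than the remaining wells. Only the 3 CD44+ libraries had at least 3 Car1-rich wells, so this comparison is within the CD44+ sort. Of 5222 genes tested, 4.33% were called higher in edgeR (226 higher, 586 lower), and of the 9 iron genes that passed the filter 3 were called higher and 0 lower. Without TMM factors the median of all genes was 0.44 instead of -0.00037, the split was 764 higher and 438 lower, and 5 iron genes were called higher, beside 14.6% of all genes.

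Fth1 stood at 2564, 2278 and 2586 CPM in Car1-rich wells of CD44+ libraries 1, 2 and 3, against 388, 448 and 1003 CPM in the remaining wells. The classes did not overlap, and the log2 difference was 1.47 (SE 0.24, adjusted p = 0.000134 in edgeR). The call held in 11 of 13 alternatives, but with wells thinned to 1000 transcripts the difference was 0.76 (adjusted p = 0.0247). The exceptions were the Car1 limits of 1 per 1000 with 2 transcripts (0.99, adjusted p = 0.109) and of 5 per 1000 (0.71, adjusted p = 0.547).

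Tfrc stood at 984, 716 and 609 CPM in Car1-rich wells, against 145, 240 and 234 CPM in the remaining wells. The classes did not overlap, and the log2 difference was 1.17 (SE 0.25, adjusted p = 0.00203 in edgeR). The call was lost without CD44+ library 2 (1.21, adjusted p = 0.0583) or 3 (1.09, adjusted p = 0.0613) and with the Car1 limit of 5 per 1000 (0.41, adjusted p = 0.859). When stromal-rich, B lineage-rich and neutrophil-rich wells were left out, the fitted difference was 0.29 (adjusted p = 0.729). Tfrc then stood at 984, 716 and 608 CPM in Car1-rich wells. In the 28, 47 and 27 remaining wells it stood at 171, 296 and 369 CPM. These CPM carry no TMM factor, while the fitted difference does, and the part of the factors was not tested. Early erythroid genes, a list that includes Car1, summed to 8493, 7937 and 9053 CPM in those Car1-rich wells. In those remaining wells they summed to 670, 1822 and 3407 CPM. Part of this contrast is set by the class rule, which uses Car1. Before wells were left out, Car1 alone stood at 4739, 3012 and 3821 CPM in Car1-rich wells. Its level in the remaining wells was 96.9, 118 and 282 CPM. The part of early erythroid genes in the lost call was not tested.

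Slc11a2 stood at 17.9, 154 and 110 CPM in Car1-rich wells, against 0, 36.8 and 39.6 CPM in the remaining wells. It was higher in each of the 3 libraries but the classes overlapped, since CD44+ library 1 held 1 transcript in Car1-rich wells and 0 in the remaining wells. The log2 difference was 1.35 (SE 0.41, adjusted p = 0.0281 in edgeR). The call was lost with DESeq2 (adjusted p = 0.276), with no library block (0.194 as adjusted p), without CD44+ library 2 (adjusted p = 0.527), and without stromal-rich, B lineage-rich and neutrophil-rich wells (0.37, adjusted p = 0.776). Steap3, its partner in the endosome, was below the filter, at 0, 88.5 and 67.7 CPM in Car1-rich wells, against 24.2, 17.7 and 26.4 CPM in the remaining wells.

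The 6 other iron genes that were tested did not pass. Slc25a37 stood at 89.3, 191 and 183 CPM in Car1-rich wells, against 24.2, 54.5 and 109 CPM in the remaining wells (log2 difference 0.79, SE 0.35, adjusted p = 0.142). In Car1-rich wells without Alas2 the difference was 0.13 (adjusted p = 0.894). Slc40a1 stood at 161, 97.8 and 87.4 CPM in Car1-rich wells, against 12.1, 28.0 and 56.6 CPM in the remaining wells, with no overlap (0.89, SE 0.42, adjusted p = 0.174). Macrophages also export iron through ferroportin. Of the 10 macrophage marker genes found in any well, 7 were found in Car1-rich wells and 9 in the remaining wells. They summed to 2.46 to 32.6 CPM per library in Car1-rich wells of the 3 CD44+ libraries. In the remaining wells they summed to 52.8 to 210 CPM, a range over all 6 libraries that includes the CD44- libraries outside this comparison. The part of macrophages in the Slc40a1 level was not tested. Aco1 did not overlap either, at 53.6, 37.2 and 57.9 CPM in Car1-rich wells, against 12.1, 13.3 and 26.4 CPM in the remaining wells (0.86, SE 0.53, adjusted p = 0.304). Ftl1, Ireb2 and Slc25a28 had log2 differences of -0.06, -0.15 and -0.50, with adjusted p-values of 0.506 to 0.901.

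**Figure D3:**
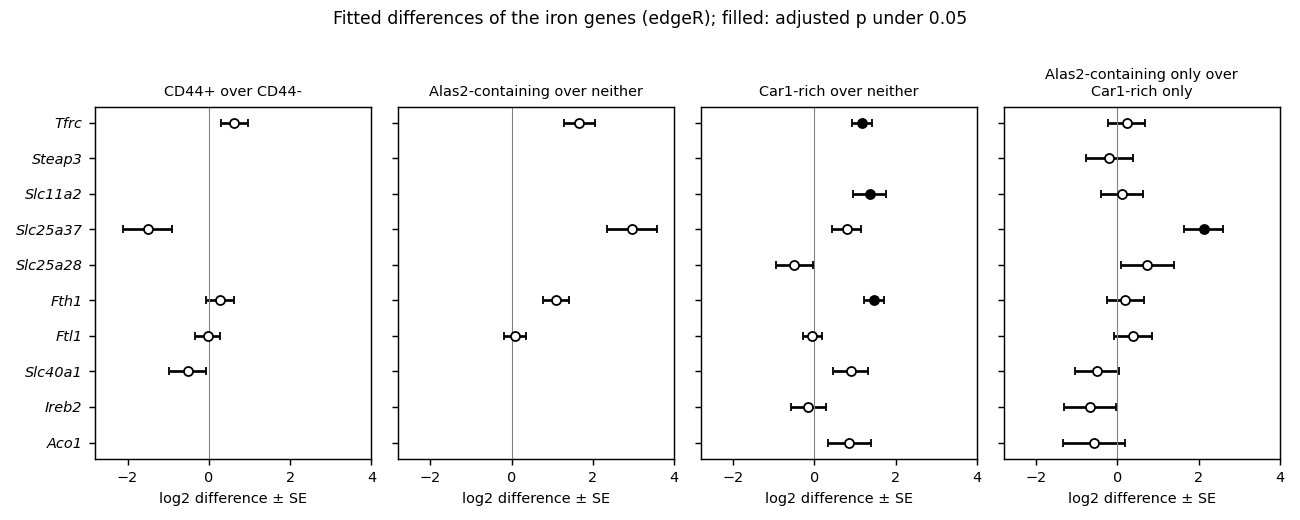
Fitted log2 differences ± SE (horizontal axis) of the iron genes in the 4 comparisons, with the group named first in each panel title on top of the ratio; filled points passed an adjusted p of 0.05 in edgeR, and genes without a point were below the filter on low counts. Slc25a37 is the filled point of the last panel, at 2.13, and Fth1, Tfrc and Slc11a2 are the filled points for Car1-rich wells.

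Slc25a37 separated the 2 erythroid marker classes from each other. Alas2-containing wells that were not Car1-rich were compared with Car1-rich wells that held no Alas2, again in the 3 CD44+ libraries. Of 3537 genes tested, 1.44% were called higher (51 higher, 13 lower in edgeR), and of the 10 iron genes, all tested, 1 was called higher and 0 lower. Slc25a37 stood at 269, 519 and 388 CPM in Alas2-containing wells, against 89.3, 191 and 60.5 CPM in Car1-rich wells. The classes did not overlap, and the log2 difference was 2.13 (SE 0.48, adjusted p = 0.00122 in edgeR; 0.00689 in DESeq2). It was 2.33 without CD44+ library 2 and 1.73 without CD44+ library 3, and the call was lost both times (adjusted p = 0.836 and 0.478).

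The 9 other iron genes did not pass between these classes. Tfrc stood at 448, 940 and 783 CPM in Alas2-containing wells, against 984, 716 and 546 CPM in Car1-rich wells (log2 difference 0.23, SE 0.47, adjusted p = 0.905). Fth1 stood at 2155, 2290 and 3001 CPM, against 2564, 2278 and 2129 CPM in Car1-rich wells (0.20, SE 0.46, adjusted p = 0.917). Slc40a1 did not overlap, at 0, 62.3 and 65.9 CPM in Alas2-containing wells, against 161, 97.8 and 83.4 CPM in Car1-rich wells, and did not pass (-0.50, SE 0.55, adjusted p = 0.815). The 6 other genes had log2 differences of -0.68 to 0.74 and adjusted p-values of 0.776 to 0.968.

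Ratios within a library set related genes against each other. The ratios were chosen after their values were seen and are a description, with no test; log2 differences were taken after adding 1 transcript to each sum. Fth1 over Ftl1 was 2.40, 1.24 and 1.83 in Alas2-containing wells of CD44+ libraries, against 0.970, 0.386 and 0.791 in the remaining wells. In CD44- libraries it was 3.16, 0.882 and 1.14 in Alas2-containing wells, against 1.11, 0.733 and 1.14 in the remaining wells. The mean log2 difference was 0.97 ± 0.67 (SD, n = 6), higher in 6 of 6 libraries although by only 0.0073 in CD44- library 3. In Car1-rich wells the ratio was 2.08, 1.59 and 1.96, against 0.970, 0.386 and 0.791 in the remaining wells, a mean log2 difference of 1.48 ± 0.50 (SD, n = 3).

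The mitoferrin ratio sets the carrier of red cell precursors over that of other tissues. In CD44+ libraries 117 Slc25a37 and 14.0 Slc25a28 transcripts were counted in Alas2-containing wells of library 2 and 261 and 33.0 in those of library 3, against 37.0 and 38.0 in the remaining wells of library 2 and 58.0 and 15.01 in those of library 3. CD44+ library 1 held 3 and 0 transcripts in Alas2-containing wells, against 2 and 4 in the remaining wells. In CD44- library 1 the counts were 64.1 and 1 in Alas2-containing wells, against 2 and 2 in the remaining wells. CD44- library 2 held 11.01 and 3 in Alas2-containing wells, against 7 and 7 in the remaining wells. CD44- library 3 held 26.03 and 1 in Alas2-containing wells, against 12 and 5 in the remaining wells. The mean log2 difference of the ratio over all 6 libraries was 2.68 ± 1.37 (SD, n = 6), higher in 6 of 6 libraries. In Car1-rich wells it was 1.16 ± 0.82 (SD, n = 3).

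**Figure D4:**
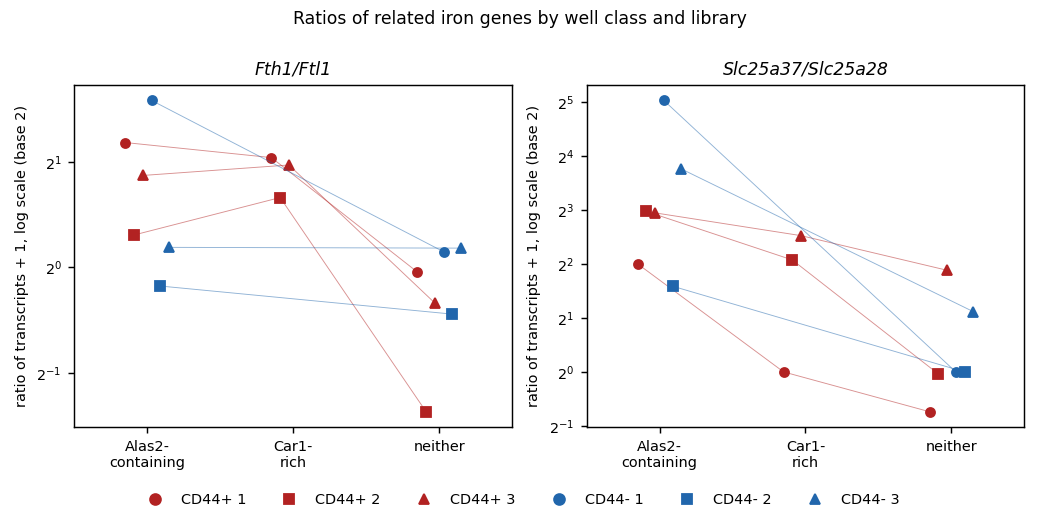
Ratios of Fth1 to Ftl1 and of Slc25a37 to Slc25a28 (transcripts + 1, log axis of base 2) in Alas2-containing, Car1-rich and remaining ("neither") wells, with 1 point per library and lines joining the classes of a library. Both ratios are higher in Alas2-containing than in the remaining wells of all 6 libraries, by 0.97 and 2.68 on average on the log2 scale, and Fth1/Ftl1 is nearly level in CD44- library 3.

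Shares of wells at equal depth are given as a description, with no test. After thinning to 1000 transcripts a Slc25a37 transcript was found in 40.8% of Alas2-containing wells (19.5% to 72.9% over 6 libraries), 13.8% of Car1-rich wells and 7.47% of the remaining wells (1.49% to 17.6%). Among Car1-rich wells without Alas2 the share was 6.53%. Tfrc was found in 43.2% of Alas2-containing wells (24.9% to 70.6%), 46.2% of Car1-rich wells (45.6% to 55.1% over 3 libraries) and 15.2% of the remaining wells (12.5% to 22.4%). Tfrc in stromal-rich wells was found in 3.79%, at a median depth of 6367 transcripts before thinning. Without thinning Tfrc was found in 40 of 58 Alas2-containing wells, 41 of 49 Car1-rich wells and 89 of 245 remaining wells. The exact 95% binomial intervals, which cover counting error only, are 55.5% to 80.5%, 70.3% to 92.7% and 30.3% to 42.7%.

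Levels of the iron genes are also given, with no test, for wells rich in markers of other lineages, defined by marker genes that make up at least 2% (stromal), 0.5% (B lineage) or 1% (neutrophil) of a well. In CPM summed over all libraries, Fth1 stood at 2000 in 19 stromal-rich wells, 598 in 48 B lineage-rich wells and 626 in 53 neutrophil-rich wells, against 1707 in all wells. For Ftl1 the levels were 1912, 891 and 1719 CPM, against 1324 CPM in all wells. Slc40a1 stood at 179, 13.1 and 30.7 CPM, in 24, 3 and 16 transcripts. Tfrc stood at 29.8, 236 and 146 CPM, and Aco1 at 37.2, 4.36 and 5.77 CPM, in 5, 1 and 3 transcripts. Of the 19 stromal-rich wells 10 come from CD44- library 3, and the limits of 2%, 0.5% and 1% were chosen after the data were seen.

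Across single wells, the genes whose levels were most like that of Slc25a37 included the globin gene listed as Beta-s (Pearson r = 0.69), Alas2 (0.62) and Slc4a1 (0.59). For Tfrc they included Car2 (r = 0.68), Rhd (0.64), Ctse (0.63) and Aqp1 (0.61). The measure is log2 of 1 plus transcripts per 10000, centred on the library, over 230 wells with at least 2000 transcripts and 8147 genes found in at least 10% of them. These wells share libraries and differ in depth, so the coefficients are descriptions.

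Other genes of iron handling were taken from 4 lists of 55 genes, 46 of which were found in the tables. Between the sorts 18 were tested, and the CD44+ sort had 0 higher and 1 lower: Cp, the ferroxidase ceruloplasmin (log2 difference -3.55, SE 0.51, adjusted p = 0.0358), beside 1.02% of all genes called. The stromal marker genes summed to 200 to 1764 CPM in CD44+ libraries, against 7079 to 34323 CPM in CD44- libraries, and without stromal-rich wells 0 genes were called in edgeR (217 at an unadjusted p under 0.05); their part in this call was not tested. In Alas2-containing wells 6 were tested, and 1 was higher and 0 lower: Blvrb, a biliverdin reductase of red cells that is also on the early erythroid marker list (2.22, SE 0.41, adjusted p = 0.0480; 0.912% of all genes were called). In Car1-rich wells 30 were tested, with 10 higher and 4 lower than in the remaining wells, beside 4.33% of all genes higher and 11.2% lower. Of 15 tested genes of iron-sulfur clusters and mitochondrial export 6 were higher, among them Lyrm4 (2.00, SE 0.53, adjusted p = 0.0111), a partner of the cysteine desulfurase, and also Isca1, Glrx5, Bola3 and Abcb10. Of 6 tested regulators 2 were higher, Tfr2, the second transferrin receptor, and Snx3, which sorts transferrin receptors. Of 5 tested genes of heme breakdown and transport Blvrb (2.21, SE 0.40, adjusted p = 0.000368) and the heme and porphyrin exporter Abcg2 were higher and haptoglobin, Hp, was lower (-7.65, SE 0.51, adjusted p = 1.72e-09). Of 4 tested genes of other transport and binding 3 were lower: Lcn2, a siderophore-binding protein of neutrophils (-7.40), transferrin itself, Trf (-4.83), and Cp (-4.62). Beside these, the neutrophil marker genes summed to 69.8 to 715 CPM per library in Car1-rich wells of the 3 CD44+ libraries, and all 9 were lower. In the remaining wells they summed to 1210 to 47805 CPM, a range over all 6 libraries that includes the CD44- libraries outside this comparison. Over the same libraries, stromal marker genes summed to 51.2 to 96.0 CPM in Car1-rich wells and 279 to 34773 CPM in the remaining wells. The part of either list in the lower calls was not tested. Between Alas2-containing and Car1-rich wells 23 of the other genes were tested and edgeR called 0 of them and DESeq2 0, while 2 had an unadjusted p under 0.05; over all genes the shares were 1.81% and 0.961%. DESeq2 called 5 of the 18 between the sorts (11% of all genes), 2 of the 6 in Alas2-containing wells (16.4%) and 6 of the 30 in Car1-rich wells (9.38%).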

How the data were processed

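By the labels' protocols, collagenase IV and dispase freed the marrow cells, which were sorted singly under mineral oil and taken through SORT-seq, a plate method that tags wells and molecules. The deposited values are expected counts: transcripts per gene and well, unscaled. The submitters' processing notes name BWA 0.7.15 and mm10; of the counter, annotation and strand setting nothing is given in the sources used here. Undoing a saturation correction for a pool of 4096 molecular tags returned 99.4% of 796931 values above 0 to whole numbers (tolerance 0.011), so that step is inferred from the values, where plain counts had been assumed.

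Well numbers were taken to run along 16 rows of 24, an order no label gives. Columns carry well numbers, the same in all 4 tables, so shared cell barcodes could not be counted. Wells under 1000 transcripts outside spike-ins (1193) were left out, and no doublet caller was run on sorted single cells. A well was of low quality where transcripts led by Kcnq1ot1 took at least 10% or mitochondrial genes at least 50%; it stayed in except in an alternative. Just inside the Car1 limit lay wells at 2.01 and 2.06 per 1000, and just outside, among wells with at least 3 Car1 transcripts, wells at 1.78 and 1.77 (with fewer transcripts, up to 1.98); 27 of the 58 Alas2-containing wells held exactly 1 Alas2 transcript.

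Wells were summed per plate and sort, and per class within these (at least 3 wells in both classes of a library), rounded and compared with edgeR 4.0.16 in R 4.3.3 (quasi-likelihood test, TMM, filterByExpr, two-sided, Benjamini-Hochberg over all genes tested, threshold 0.05), with the library as a block between classes. SE is the absolute log2 difference over the square root of F. Alas2 and Car1 were left out of counts between classes. Fits were also run on simulated counts with log2 changes of 3 and no library effects, which does not cover the smaller differences reported here. DESeq2 1.42.0, other filters and left-out libraries were alternatives. CPM carry no TMM factor. Thinned shares are expected shares after drawing 1000 transcripts from a well; single values were compared by exact permutation over libraries, two-sided.

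Deviations from the sort means correlated at 0.46, 0.31 and 0.32 in same-numbered libraries and at -0.36 to 0.08 in others, and each of numbers 2 and 3 shares a plate, so the numbers were taken to pair the libraries. No label names animals, so p-values measure only how far these libraries spread, and that spread may be technical. The 10 genes, the lists and the tests were chosen with earlier results of these data known. All 10 genes are named; of the other iron genes called, values are given for at most 6 per comparison by size; the 5 most correlated genes were taken for Tfrc and Slc25a37. Some genes that these rules name are not reported here.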

Additional observations from a re-analysis of the deposited data

Results flagged for a closer look

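In 3 of 20 groups of 6 libraries tested, a single library lay apart from the others by its gap; chance flags about 1 in 20. Tfrc in Alas2-containing wells stood at 1814 CPM in CD44- library 3 (42.1 transcripts in 8 wells), against 940 CPM in the next library. Slc25a37 in Alas2-containing wells stood at 3092 CPM in CD44- library 1 (64.1 transcripts in 9 wells), against 1123 CPM in the next. Slc25a28 in the remaining wells stood at 106 CPM in CD44- library 2 (7 transcripts in 19 wells), against 55.9 CPM in the next.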

How the results depend on the processing

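The count of genes called between the sorts (25) was 156 with the replicate block, 270 with DESeq2, 476 with no filter, 41 with wells of at least 500 transcripts, 55 without wells of low quality, 11 without Alas2-containing and Car1-rich wells, and 0 after thinning or without stromal-rich wells (32 and 217 genes at an unadjusted p under 0.05); with 1 library left out it was 0 to 115, with 115 without CD44- library 1 and 0 without any 1 of the 5 others (337 to 616 genes at an unadjusted p under 0.05). The block changed no iron gene's call. With no filter 1 of the 10 iron genes (Steap3) was called, beside 476 of 16924 genes. Tfrc was -0.56 after thinning, and Fth1 was -0.69 without Alas2-containing and Car1-rich wells. Ftl1 (-0.03) was 0.44 with no filter, 0.0791 with wells of at least 500 transcripts, 0.0804 without wells of low quality, 0.23 without stromal-rich wells and -0.0945 to 0.23 with 1 library left out; Slc40a1 was -0.61 to 0.0210 with 1 library left out.

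Between Alas2-containing and remaining wells the count (8, with 0 iron genes) was 144 with DESeq2 (3 iron genes), 39 without TMM factors (2), 463 with no filter (2), 2 with no library block (1), 15 after thinning (1), 2 without wells of low quality, 318 with at least 2 Alas2 transcripts (1), 51 without stromal-rich, B lineage-rich and neutrophil-rich wells (2), and 2 to 37 with 1 library left out (0 to 1 iron genes), the lowest without CD44+ library 2 and the highest without CD44- library 3. Genes tested were 877 in the main fit, with DESeq2, without TMM factors and with no library block, 4 of them iron genes. With no filter 16799 genes were tested (10 iron genes), after thinning 173 (2 iron genes), and with 1 library left out 776 to 1330. Without wells of low quality 1282 were tested (4 iron genes). For the settings with at least 2 Alas2 transcripts and without stromal-rich, B lineage-rich and neutrophil-rich wells the genes tested are not given. Their counts of iron genes are descriptions. A limit of 1 Alas2 transcript per 1000 left 1 library and could not be fitted. Ftl1 was -0.0527 with no filter, -0.21 with at least 2 Alas2 transcripts and -0.11 to 0.20 with 1 library left out.

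Between Car1-rich and remaining wells the count (812, with 3 iron genes) was 490 with DESeq2, 1589 with no filter, 65 after thinning (1 iron gene), 393 with Car1 at least 1 per 1000 (1), 223 with at least 5 per 1000 (0), 197 without stromal-rich, B lineage-rich and neutrophil-rich wells (1), and 346 to 1585 with 1 library left out (1 to 5), the lowest without CD44+ library 3 and the highest without CD44+ library 1; without TMM factors 5 iron genes were called. Genes tested were 5222 in the main fit, with DESeq2 and without TMM factors, and 16027 with no filter. For the other settings the genes tested are not given. Their counts of iron genes cannot be set against a share of all genes and are descriptions. Without TMM factors Ftl1 was 0.54 and Ireb2 0.30, and with no filter Ftl1 was 0.0069. Without stromal-rich, B lineage-rich and neutrophil-rich wells Ftl1 was 0.15, Slc40a1 -0.13 and Aco1 -0.18. Ftl1 was also -0.73 after thinning and -1.08 with Car1 at least 5 per 1000, against -0.06, and did not pass either time. With 1 library left out Ftl1 was -0.16 to 0.0038 and Ireb2 -0.82 to 0.16.

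Between Alas2-containing and Car1-rich wells the count (64) was 34 with DESeq2, 14 without wells of low quality and 4 to 55 with 1 library left out (0 to 1 iron genes), the lowest without CD44+ library 2. With a library left out the genes tested are not given, so the counts of iron genes there are descriptions. Slc11a2 was -0.0165 without TMM factors. With 1 library left out Tfrc was -0.20 to 0.64, Steap3 -0.33 to 0.0211 and Slc11a2 -0.26 to 0.62. Without thinning, the CD44+ minus CD44- difference in the share of wells was 3.11 percentage points for Slc25a37, 9.90 for Slc40a1, 11.8 for Aco1 and 13.2 for Slc11a2.

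The alternative without stromal-rich, B lineage-rich and neutrophil-rich wells was chosen after seeing the data; the cause of these changes was not tested, except that thinning and left-out wells or libraries change the genes and sums tested. Depth limits Steap3, Ireb2 and Aco1, which rest on 0 to 7 transcripts per CD44- library. Intervals and floors (3 counts) cover counting error only.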
